A study of Mus musculus with 18 samples.

Results

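The 10 genes described here make, fold or specify the mucus of intestinal goblet cells. They are the gel-forming mucin Muc2, the mucus proteins Fcgbp, Zg16 and Clca1, the secreted peptides and enzymes Tff3, Spink4 and Klk1, the disulfide isomerase Agr2, and the transcription factors Spdef and Atoh1. They were chosen by name as known goblet cell genes and found through the gene symbols of the array's platform annotation. All 10 had a probe. Of these, 9 had one that was detected and could be tested, among 12804 named genes that could be tested in all.

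Transcripts were measured on 18 Illumina mouse bead arrays, each of ileal epithelium from a separate CD-1 pup, an outbred mouse stock kept free of specific pathogens. Males and females were used and their sex is not given per array. All pups received 1 orogastric gavage of 50 uL of phosphate-buffered saline (PBS), either alone or carrying 1e+08 colony-forming units of Lactobacillus reuteri DSM 17938 or of L. reuteri ATCC PTA 6475, both strains of a gut bacterium used as probiotics. The 6 groups of 3 mice were PBS, DSM 17938 and ATCC PTA 6475 at 4 h, in pups labelled 11 days old, and the same at 24 h, in pups labelled 12 days old. The epithelium came from 24 sections of the last 4 cm of the ileum of each animal and was lifted off by laser capture, in which cells seen under a microscope are cut from a section. Every difference between the times is therefore also a difference between pups of those ages.

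Goblet cells are the secretory cells that fill the gaps between absorptive enterocytes and release mucus onto the gut surface. Muc2 is folded in the endoplasmic reticulum, a step that needs Agr2, and is later packed into granules with Fcgbp, Zg16, Clca1 and Tff3. Atoh1 commits crypt cells to the secretory lineage when Notch signalling is off, and Spdef, which acts after it, drives goblet cell maturation.

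Promoter sequences were available from RefSeq for 6 of the 10 genes (GRCm38.p6), and those of the gel mucin, of one of its partners, of the isomerase and of the lineage factor are shown because their transcripts are followed below. Each run is the 250 bases before the start that the promoter table gives, read 5′ to 3′ on the gene's strand. For Spdef that start lies within the listed gene, chr17:27714446-27731003 and not at its outer end. Capitals mark 3 motifs searched on both strands: CAGCTG, an E-box of the kind bound by basic helix-loop-helix factors such as Atoh1; GGAT or its complement ATCC, a core that Spdef is known to bind; and TATAAA. No 2 matches overlapped.
Muc2, chr7:141690090-141690339, plus strand: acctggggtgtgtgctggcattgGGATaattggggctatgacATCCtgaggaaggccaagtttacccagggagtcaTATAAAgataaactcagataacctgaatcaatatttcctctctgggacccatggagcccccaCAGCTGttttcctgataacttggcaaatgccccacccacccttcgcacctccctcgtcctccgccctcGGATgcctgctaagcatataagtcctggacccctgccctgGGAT
Fcgbp, chr7:28070986-28071235, plus strand: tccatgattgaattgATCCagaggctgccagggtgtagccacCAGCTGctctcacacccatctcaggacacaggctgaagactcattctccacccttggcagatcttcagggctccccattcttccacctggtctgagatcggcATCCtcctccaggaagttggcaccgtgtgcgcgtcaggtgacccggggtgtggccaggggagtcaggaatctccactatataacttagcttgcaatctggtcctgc
Agr2, chr12:35992675-35992924, plus strand: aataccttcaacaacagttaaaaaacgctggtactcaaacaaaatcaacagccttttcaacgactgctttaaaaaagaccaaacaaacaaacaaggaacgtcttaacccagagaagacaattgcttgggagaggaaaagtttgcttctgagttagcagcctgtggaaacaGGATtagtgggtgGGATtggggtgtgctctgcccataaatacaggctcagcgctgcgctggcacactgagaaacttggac
Spdef, chr17:27728952-27729201, minus strand: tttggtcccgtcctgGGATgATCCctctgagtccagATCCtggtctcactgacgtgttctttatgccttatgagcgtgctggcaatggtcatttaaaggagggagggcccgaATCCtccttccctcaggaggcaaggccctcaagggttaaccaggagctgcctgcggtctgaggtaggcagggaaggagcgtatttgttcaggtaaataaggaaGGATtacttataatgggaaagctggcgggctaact
The E-box occurred in 2 of the 6 promoters, at -112 from the start in Muc2 and at -208 in Fcgbp, and in 4271 of all 32851 promoters of this length. GGAT or ATCC was present in 5 of the 6, against 74.1% of all promoters, with 4 matches in Muc2, 2 in Fcgbp, 2 in Agr2 and 5 in Spdef. TATAAA was found in Muc2 alone of the 6, at -174, and in 12.4% of all promoters. A match is a run of letters and was not tied to binding in these mice.

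Across the series, 20284 to 22848 of 45281 probes were detected per array and the mean bead signal ran from 210.3 to 459.7. The dimmest arrays were replicates 2 and 3 of ATCC PTA 6475 at 24 h, at 210.3 and 261.5. Values below are background-corrected, quantile-normalised log2 signals, the mice of a group are listed in the order of their replicate numbers, and the number of arrays limits the precision. With 3 mice a group, the smallest two-sided p that an exact permutation test allows is 0.1. Tests across all 16835 features (genes and unnamed probes) were made with limma. Its p-values weigh each difference of group means against the spread between mice, which is pooled over the groups and drawn partly from other features. After Benjamini-Hochberg adjustment at 0.05, 0 of the 9 genes and 0.0% of all features passed in each of the 14 comparisons made, while 372 to 2537 of the 16835 features had an unadjusted p under 0.05, so no gene is said to have changed. In tissue RNA, fewer goblet cells and less RNA per goblet cell cannot be told apart.

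Muc2, the polymer that forms the mucus gel, was bright in all 18 mice at 1 of its 3 probes. At 4 h it stood at 13.03, 13.24 and 12.89 in the PBS mice, at 13.15, 13.20 and 12.93 with DSM 17938 and at 13.05, 13.10 and 13.07 with ATCC PTA 6475. At 24 h the values were 13.18, 13.26 and 13.19 with PBS, 12.95, 12.80 and 13.36 with DSM 17938, and 13.01, 13.39 and 13.53 with ATCC PTA 6475. The strain groups overlapped with PBS at both times, and the whole range over the 18 mice was 1.65-fold. The other 2 Muc2 probes were detected in no array, with bead signals of 38.2 to 67.3 and 42.2 to 63.4 against 6430.3 to 12736.2 for the bright one, so Muc2 rests on a single probe.

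Fcgbp, a large protein bound into the Muc2 gel, was dim, with bead signals of 84.7 to 174.4, though detected in all 18 arrays. Its 3 highest group means were 6.81 ± 0.30 (SD, n = 3) with ATCC PTA 6475 at 24 h, 6.30 ± 0.66 with DSM 17938 at 24 h and 6.29 ± 0.50 with DSM 17938 at 4 h, and its lowest was 6.07 ± 0.14 with PBS at 4 h. With ATCC PTA 6475 at 24 h the mice stood at 6.62, 6.66 and 7.16, all above the PBS mice of that time at 6.21, 5.94 and 6.50. Before normalisation this separation was absent: the Fcgbp bead signals were 174.4, 86.4 and 134.6 with ATCC PTA 6475 and 114.9, 103.5 and 106.8 with PBS. Its probe carries the accession of a cDNA clone and is the only one that names this gene.

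Zg16, a lectin that binds bacterial cell walls, varied between mice of the same group more than 99.4% of all features, with a standard deviation of 1.13. Its extremes lay inside a single group: with DSM 17938 at 4 h the mice stood at 8.31, 10.95 and 6.82, which spans 17.4-fold. The PBS mice of that time were at 9.26, 10.18 and 8.85, inside that range, and those given ATCC PTA 6475 were at 8.06, 9.25 and 8.66. At 24 h the values were 8.62, 10.69 and 10.40 with PBS, 10.11, 10.30 and 9.76 with DSM 17938, and 7.52, 9.56 and 9.23 with ATCC PTA 6475. Both strain groups therefore overlapped with PBS at each time. A single mouse set the sign of the DSM 17938 difference at 4 h, which was -0.74 over all mice, -1.86 without the replicate at 10.95 and 0.20 without the replicate at 6.82.

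Clca1, a metalloprotease that goblet cells secrete into mucus, had 2 detected probes. At 4 h its brighter probe stood at 10.94, 11.45 and 11.00 in the PBS mice, at 11.73, 11.76 and 11.45 with DSM 17938 and at 11.13, 11.06 and 11.10 with ATCC PTA 6475. At 24 h the order turned: PBS mice were at 11.41, 11.75 and 11.50 and DSM 17938 mice at 10.83, 11.40 and 11.25, with ATCC PTA 6475 at 11.33, 11.66 and 11.56. DSM 17938 mice thus held the upper end of the range at 4 h, where the lowest of them met the highest PBS mouse at 11.45. At 24 h they lay only just below every PBS mouse, the highest of them at 11.404 and the lowest PBS mouse at 11.408. Before normalisation this separation was absent: the Clca1 bead signals were 1802.6, 2987.3 and 2352.5 with DSM 17938 and 2894.1, 4476.0 and 2516.3 with PBS. The second probe gave 0.55 for DSM 17938 minus PBS at 4 h and -0.53 at 24 h, beside 0.52 and -0.39 for the first.

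Tff3, the trefoil peptide of goblet cells, which aids repair of the surface, was steady in 5 of the groups, with means from 12.50 to 12.63. The exception was ATCC PTA 6475 at 24 h, where the mice stood at 12.79, 13.11 and 13.17 (mean 13.02 ± 0.20). PBS mice of that time were at 12.72, 12.51 and 12.49 and DSM 17938 mice at 12.64, 12.39 and 12.48, all lower than each ATCC PTA 6475 mouse. Before normalisation this separation was absent: the Tff3 bead signals were 8621.6, 5239.2 and 6168.6 with ATCC PTA 6475 and 7244.9, 7644.1 and 4984.8 with PBS, and 2 of the ATCC PTA 6475 arrays were the dimmest of the series.

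Spink4, a small protease inhibitor-like peptide of goblet cells, ranged 1.76-fold over the 18 mice, from 12.58 to 13.40. Both extremes were DSM 17938 mice, the lowest at 24 h and the highest at 4 h. The group means were 12.92 ± 0.18 with PBS, 13.10 ± 0.31 with DSM 17938 and 12.87 ± 0.21 with ATCC PTA 6475 at 4 h, and 12.93 ± 0.11, 12.73 ± 0.22 and 12.99 ± 0.13 in that order at 24 h.

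Klk1, tissue kallikrein, a serine protease, stood apart between the times in the vehicle group. PBS mice were at 8.22, 8.60 and 8.26 at 4 h and at 9.11, 9.78 and 8.93 at 24 h, with no overlap. DSM 17938 mice were at 8.82, 9.13 and 8.43 at 4 h and at 8.42, 8.86 and 9.10 at 24 h, so that their means, 8.79 ± 0.35 and 8.79 ± 0.34, were level. With ATCC PTA 6475 the mice were at 8.55, 8.48 and 8.16 at 4 h and at 9.05, 9.20 and 8.77 at 24 h, again without overlap. Before normalisation, the Klk1 bead signals overlapped between the times with PBS and with ATCC PTA 6475. Mouse kallikrein genes are close copies of each other, and the signal of Klk1b26 followed that of Klk1 over the 18 arrays at r = 0.98, so signal shared between their probes cannot be set aside.

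Agr2, the endoplasmic reticulum isomerase that mucin folding needs, was dim, with bead signals of 83.4 to 175.6. At 4 h it stood at 6.27, 6.12 and 6.01 in the PBS mice, at 6.24, 6.66 and 6.49 with DSM 17938 and at 6.06, 6.01 and 5.88 with ATCC PTA 6475. At 24 h PBS mice were at 6.38, 6.93 and 6.73, DSM 17938 mice at 5.61, 5.98 and 6.24, and ATCC PTA 6475 mice at 6.28, 6.57 and 6.70. Every DSM 17938 mouse at 24 h lay below every PBS mouse and every ATCC PTA 6475 mouse of that time. The same group had the lowest mean of the 6, 5.94 ± 0.32, and the PBS group of that time the highest, 6.68 ± 0.28. Before normalisation, the bead signals of the DSM 17938 mice at 24 h overlapped with those of ATCC PTA 6475 but not of PBS.

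Spdef, the goblet cell maturation factor, was detected in all mice within a 1.81-fold range. At 4 h it stood at 8.08, 8.05 and 8.02 with PBS, at 8.27, 8.48 and 8.10 with DSM 17938 and at 8.13, 8.20 and 7.62 with ATCC PTA 6475. At 24 h the mice were at 8.16, 8.22 and 8.00 with PBS, at 7.88, 7.63 and 8.07 with DSM 17938 and at 8.27, 8.44 and 8.17 with ATCC PTA 6475. DSM 17938 mice lay above each PBS mouse at 4 h and reached lower than PBS at 24 h. Before normalisation, the bead signals of DSM 17938 and PBS mice at 4 h overlapped for Spdef. Atoh1, the factor upstream of it, had 1 probe, with bead signals of 38.2 to 62.3 and a detection p of 0.241 at its lowest, so it was not well above background in any of the 18 arrays and no difference is given for it.

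**Figure D1:**
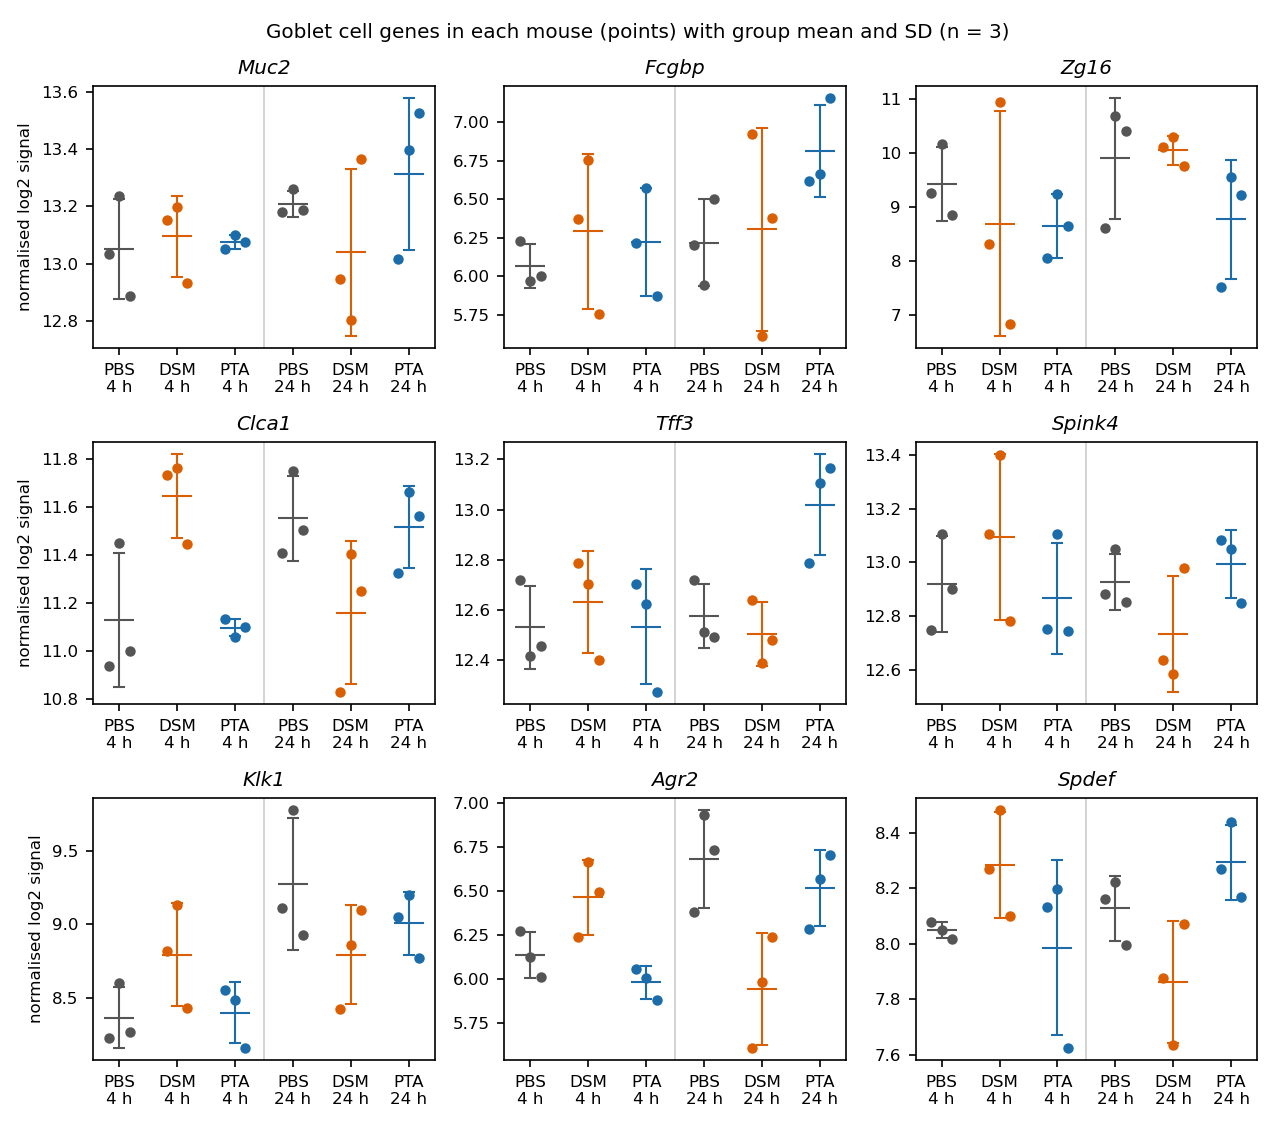
Normalised log2 signal (vertical axis, its own scale in each panel) of the 9 tested genes in every mouse, by group along the horizontal axis; points are mice, the long line is the mean of 3 and the bars are its SD. Tff3 with ATCC PTA 6475 at 24 h (12.79 to 13.17) lies above all other groups of that time, Agr2 with DSM 17938 at 24 h (5.61 to 6.24) lies below them, and Zg16 with DSM 17938 at 4 h spans 6.82 to 10.95.

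The first question of the design is whether a strain alters the epithelium within hours of its gavage. At 4 h after DSM 17938, 8 of the 9 genes stood higher than with PBS, and Zg16 alone stood lower, while 51.3% of all features were higher. The median difference over the 9 was 0.23 on the log2 scale, against 0.0060 over all features. Zg16 was at -0.74 (SE 0.80). Among the 8 higher genes the widest was Clca1, at 0.52 (SE 0.17), or 1.43-fold higher, with Klk1 next at 0.43 (SE 0.24) and Agr2 at 0.33 (SE 0.18). Clca1 was the 1 gene of the 9 higher at an unadjusted limma p under 0.05 (adjusted p = 1.00), where 1.66% of all features were. Spdef was the 1 gene whose groups did not overlap upward, at 0.23 (SE 0.16), where 4.56% of features did so. Its lowest DSM 17938 mouse, at 8.10, was close to the highest PBS mouse, at 8.08. Before normalisation, the Spdef bead signals of these groups overlapped. The count of 8 depended on 1 mouse: without replicate 2 of the DSM 17938 group, which had all 9 genes above their own means, it was 6 and the median difference was 0.06.

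With ATCC PTA 6475 at 4 h the goblet cell genes straddled PBS. Of the 9, 4 stood higher, as did 50.2% of all features, and 5 lower, with a median difference of -0.031 against 0.00055 over all features. No gene of the 9 reached an unadjusted limma p under 0.05, where 3.33% of all features did, and none had groups without overlap, where 7.7% of features did. Apart from Zg16, at -0.78 (SE 0.80), the differences lay between -0.16 for Agr2 and 0.15 for Fcgbp. The count of 4 was 1 without replicate 2 of the ATCC PTA 6475 group, without replicate 3 of the PBS group, or with arrays scaled to a common median, and 6 without replicate 3 of the ATCC PTA 6475 group. The same PBS mice served for both strains, so the 2 comparisons are not independent, and the comparisons between strains and between times below reuse these arrays again.

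At 24 h after DSM 17938, 7 of the 9 genes stood lower than with PBS, while 48.3% of all features were lower, and the median difference was -0.20 against 0.0079 over all features. Agr2 differed most, at -0.74 (SE 0.18), or 1.67-fold lower. It was followed by Klk1 at -0.48 (SE 0.24), Clca1 at -0.39 (SE 0.17), Spdef at -0.27 (SE 0.16), Spink4 at -0.20 (SE 0.17) and Muc2 at -0.17 (SE 0.16). Agr2 and Clca1 were the 2 genes lower at an unadjusted limma p under 0.05, where 2.42% of all features were, and also the 2 whose groups did not overlap, where 4.38% of features did not in that direction. Their adjusted p by limma was 0.911 for both. Before normalisation, the bead signals of Clca1 in these groups overlapped and those of Agr2 did not. Agr2 moved with the background handling: its difference was -0.52 with a larger offset and -0.49 in the authors' deposited value table, and it lay between -0.89 and -0.57 when single mice were left out.

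At 24 h after ATCC PTA 6475, the 9 genes did not lie to one side of PBS, with 5 higher (52.4% of all features were), 4 lower and a median of 0.067 against 0.015 over all features. Tff3 stood 0.44 (SE 0.16) higher, or 1.36-fold, and Fcgbp 0.60 (SE 0.30) higher, or 1.51-fold. Zg16 was at -1.13 (SE 0.80), with values between -1.78 and -0.51 when single mice were left out. Tff3 was the 1 gene higher at an unadjusted limma p under 0.05 (adjusted p = 0.203), in a comparison where 7.59% of all features were. Tff3 and Fcgbp were the 2 genes whose groups did not overlap upward, where 10.8% of features did so. When arrays were scaled to a common median in place of quantile normalisation, the Tff3 difference was 0.06, the count of genes above 0 was 2, and the median of all features itself shifted to -0.156.

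**Figure D2:**
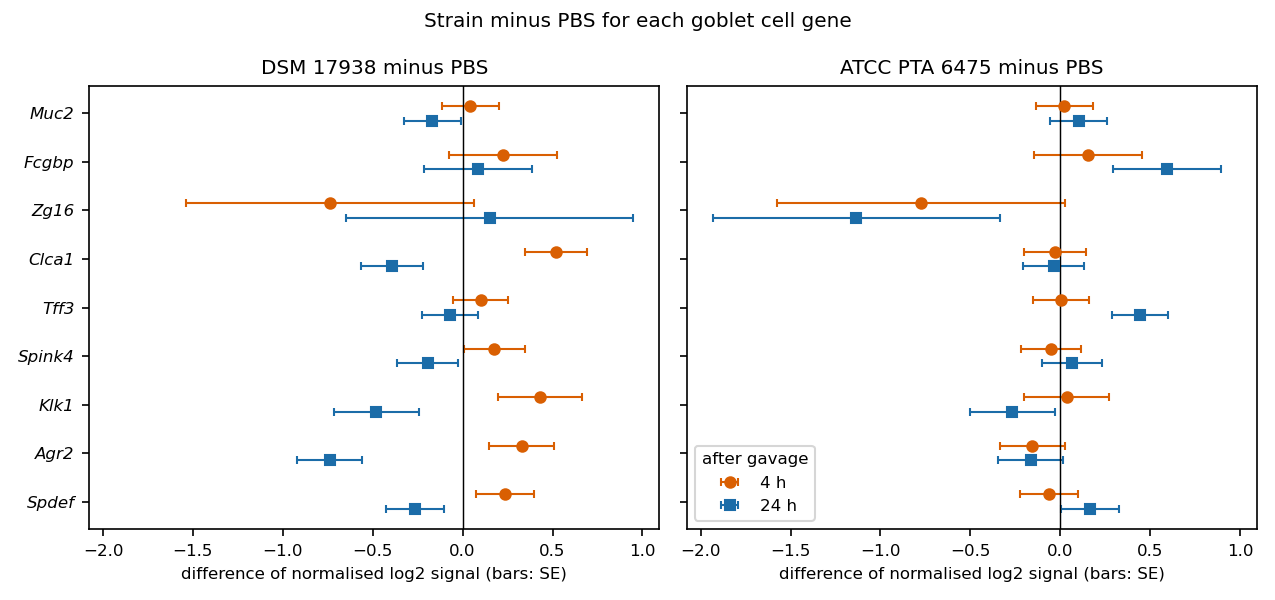
Difference of mean normalised log2 signal, strain minus PBS (horizontal axis), for the 9 tested genes at 4 h (circles) and 24 h (squares), DSM 17938 on the left and ATCC PTA 6475 on the right; bars are standard errors of the limma fit. With DSM 17938, Clca1, Klk1, Agr2 and Spdef lie above 0 at 4 h and below 0 at 24 h, while with ATCC PTA 6475 the largest departures are Tff3 and Fcgbp at 24 h and Zg16 at both times.

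Averaged over both strains, 8 of the 9 genes were above PBS at 4 h and 2 of the 9 at 24 h, beside 50.7% and 52.3% of all features. At 24 h Agr2 was the 1 gene with an unadjusted limma p under 0.05, at -0.45 (SE 0.16, adjusted p = 0.263), where 6.28% of features were lower by that rule. The count of 8 at 4 h became 3 with arrays scaled to a common median. The count of 2 at 24 h was 4 without replicate 2 of the DSM 17938 group and 3 without replicate 1 of the ATCC PTA 6475 group, 5 with weights per array and 1 with arrays scaled to a common median.

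Set directly against each other, the strains gave opposite pictures at the 2 times. At 4 h all 9 genes stood lower with ATCC PTA 6475 than with DSM 17938, beside 51.5% of all features, with a median of -0.23. The widest differences were Clca1 at -0.55 (SE 0.17) and Agr2 at -0.48 (SE 0.18), the 2 genes lower at an unadjusted limma p under 0.05 (1.44% of features) and the 2 without overlap (3.96%). The count of lower genes was 6 without replicate 2 of the DSM 17938 group. Markers of other cells moved in this comparison too: 12 of 14 muscle and stroma markers stood higher with ATCC PTA 6475 (median 0.18), as did 9 of 12 leukocyte markers (median 0.20), and their part in the goblet cell values was not tested.

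At 24 h, 8 of the 9 genes stood higher with ATCC PTA 6475 than with DSM 17938, beside 51.3% of all features, with a median of 0.36, and 8 were higher whichever mouse was left out. Agr2 differed by 0.58 (SE 0.18), Tff3 by 0.52 (SE 0.16) and Spdef by 0.43 (SE 0.16), and these 3 had an unadjusted limma p under 0.05, where 2.15% of features were higher by that rule. They were also the 3 without overlap upward, where 4.13% of features were, while Zg16, at -1.28 (SE 0.80), was the 1 without overlap downward, where 3.09% were. By limma the adjusted p was 1.00 for each of these genes. With arrays scaled to a common median the count of higher genes was 6 and the median 0.084. Before normalisation, the bead signals of the strains overlapped for Agr2, Tff3 and Spdef, but not for Zg16.

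Between the times, PBS pups had all 9 genes higher at 24 h than at 4 h, beside 49.4% of all features, with a median difference of 0.16. Klk1 differed most, at 0.91 (SE 0.24), or 1.88-fold, with Agr2 at 0.55 (SE 0.18) and Clca1 at 0.43 (SE 0.17), while Spink4 was level at 0.0093 (SE 0.17). These 3 were higher at an unadjusted limma p under 0.05, where 1.89% of features were, and Klk1 and Agr2 did not overlap, as 4.6% of features did not in that direction. In all pups pooled, Klk1 was 0.51 (SE 0.14) higher at 24 h and was the 1 gene of the 9 at an unadjusted limma p under 0.05 (adjusted p = 0.563), where 3.1% of features were higher by that rule.

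DSM 17938 pups showed the reverse order for most of the genes: 6 of the 9 were lower at 24 h than at 4 h, beside 50.8% of all features, with a median of -0.13. Agr2 at -0.52 (SE 0.18), Clca1 at -0.49 (SE 0.17), Spdef at -0.42 (SE 0.16) and Spink4 at -0.36 (SE 0.17) had an unadjusted limma p under 0.05, where 1.28% of features were lower by that rule, and the first 3 did not overlap, where 2.83% did not. Before normalisation, the bead signals of Clca1 overlapped between the times, while those of Agr2 and Spdef did not. Zg16 was the widest in the other direction, at 1.36 (SE 0.80). ATCC PTA 6475 pups again had all 9 genes higher at 24 h, beside 50.9% of features, with a median of 0.42. There Klk1 at 0.61 (SE 0.24), Agr2 at 0.54 (SE 0.18), Tff3 at 0.49 (SE 0.16) and Clca1 at 0.42 (SE 0.17) had an unadjusted limma p under 0.05, where 3.1% of features were higher by that rule. These 4 and Fcgbp, 5 genes, did not overlap, where 5.4% of features did not in that direction. Before normalisation, the bead signals of each of these 5 overlapped between the times. The 24 h arrays of that strain included the dimmest of the series. With arrays scaled to a common median, 7 of the 9 genes were higher.

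The difference between the 2 times in the effect of DSM 17938 was itself tested, as its effect at 24 h minus that at 4 h. It was below 0 for 8 of the 9 genes, beside 49.1% of all features, with a median of -0.37. Agr2 was at -1.07 (SE 0.25), Clca1 at -0.91 (SE 0.24), Klk1 at -0.91 (SE 0.33) and Spdef at -0.50 (SE 0.23), the 4 genes with an unadjusted limma p under 0.05, where 1.14% of features were lower by that rule. Their adjusted p was 1.00 by limma, so none passed. For ATCC PTA 6475 the same quantity was above 0 for 5 of the 9 genes, beside 51.2% of all features, with a median of 0.081, and no gene of the 9 had an unadjusted limma p under 0.05, where 4.7% of features did; Tff3 came nearest, at 0.44 (SE 0.22). The count of 5 was 8 without replicate 1 of the ATCC PTA 6475 group at 24 h or without replicate 2 of the PBS group at 24 h, and 3 with arrays scaled to a common median.

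Ordered by group mean, each gene had at most 1 step between neighbouring groups that was wider than its standard deviation between mice. Fcgbp and Tff3 had that step below their highest group, ATCC PTA 6475 at 24 h. For Clca1 it separated the groups at 11.52 ± 0.17 and above (DSM 17938 at 4 h, PBS and ATCC PTA 6475 at 24 h) from those at 11.16 ± 0.30 and below. Agr2 was divided in the same way, with PBS and ATCC PTA 6475 at 24 h and DSM 17938 at 4 h at 6.46 ± 0.21 or above and the others at 6.14 ± 0.13 or below. Klk1 had its step between DSM 17938 at 4 h, at 8.79 ± 0.35, and ATCC PTA 6475 at 4 h, at 8.40 ± 0.21. Muc2, Zg16, Spink4 and Spdef had no such step, so no neighbours in their orders were separated by more than the spread.

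The spread between mice of a group was below the median of all features, a standard deviation of 0.23, for 6 of the 9 genes. It was 0.18 for Tff3, 0.19 for Muc2 and for Spdef, 0.20 for Spink4, 0.21 for Clca1 and 0.22 for Agr2. Fcgbp, at 0.41, varied more than 90.8% of features and Klk1, at 0.31, more than 78.4%, with Zg16 highest of the 9.

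Individual arrays tended to carry several of the genes high or low together. All 9 genes were above their own means over the 18 arrays in replicate 2 of DSM 17938 at 4 h and in replicate 2 of ATCC PTA 6475 at 24 h. None of the 9 was above its mean in replicate 3 of PBS at 4 h and in replicate 3 of ATCC PTA 6475 at 4 h. The mean bead signals of these 4 arrays were 354.4, 210.3, 303.2 and 331.0 in that order, and their part in the pattern was not tested. Replicate numbers recurred in it. Zg16 was highest in replicate 2 in all 6 groups and Clca1 in 5 of them. The mean of the 9 was lowest in replicate 3 in all 3 groups at 4 h. That mean was not scaled by spread, so Zg16 weighed most in it. Arrays of the same replicate number are numbered consecutively in the file headers, which do not say whether they were processed together, and each such set holds 1 array of every group. With the replicate number as a block, 0 of the 9 genes passed in any comparison, and the lowest adjusted p by limma was 0.120, for Tff3 with ATCC PTA 6475 at 24 h.

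**Figure D3:**
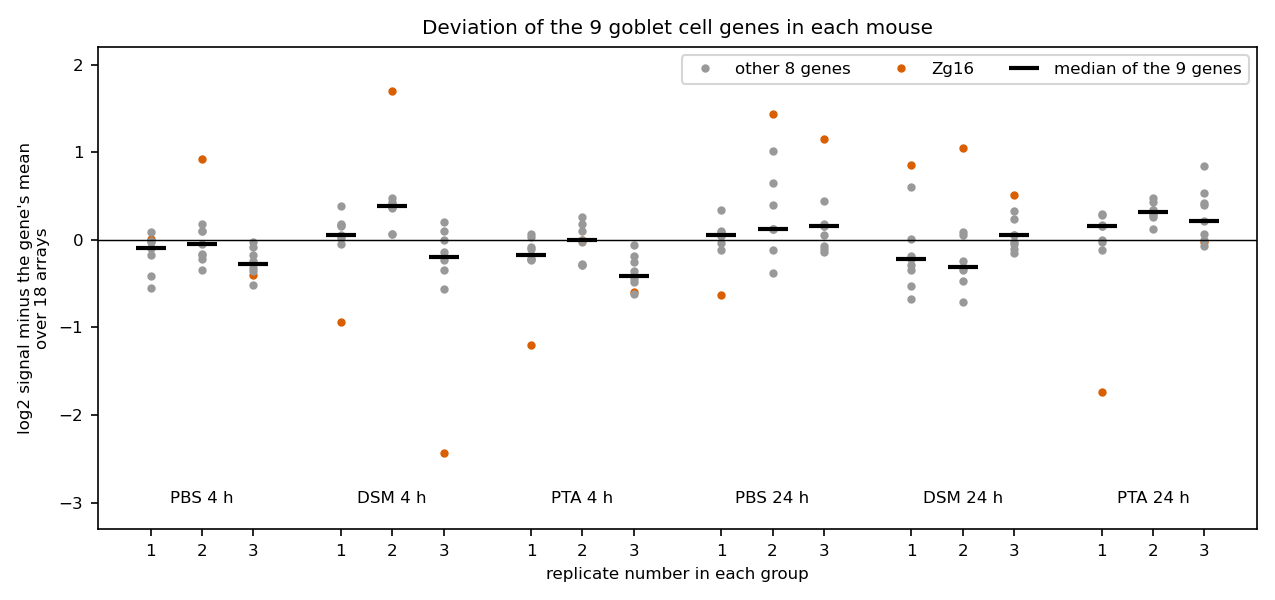
Deviation of each of the 9 tested genes from its own mean over 18 arrays (vertical axis, log2) in every mouse, by group and replicate number along the horizontal axis; Zg16 is coloured and the black line is the median of the 9. Replicate 2 of DSM 17938 at 4 h has its median at 0.38 and replicate 3 of ATCC PTA 6475 at 4 h at -0.41, and Zg16 has the widest scatter.

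Over the 18 arrays the closest pairs were Spink4 with Spdef and Clca1 with Agr2, both at Pearson r = 0.78, followed by Fcgbp with Tff3 at 0.75 and Clca1 with Klk1 at 0.74. These values are descriptions over 18 arrays that share groups, normalisation and scanning. After the group means were subtracted, Spink4 with Klk1 stood at 0.75, Clca1 with Klk1 at 0.71, Spink4 with Spdef at 0.70 and Fcgbp with Tff3 at 0.65, so these pairs also varied together between mice of a group. Clca1 with Agr2 went from 0.78 to 0.51. Muc2 was correlated positively with each of the others, from 0.28 for Zg16 to 0.59 for Agr2. Zg16 was the least alike, with r from -0.07 for Tff3 to 0.39 for Klk1, though within groups its median r with the other 8 was 0.47.

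**Figure D4:**
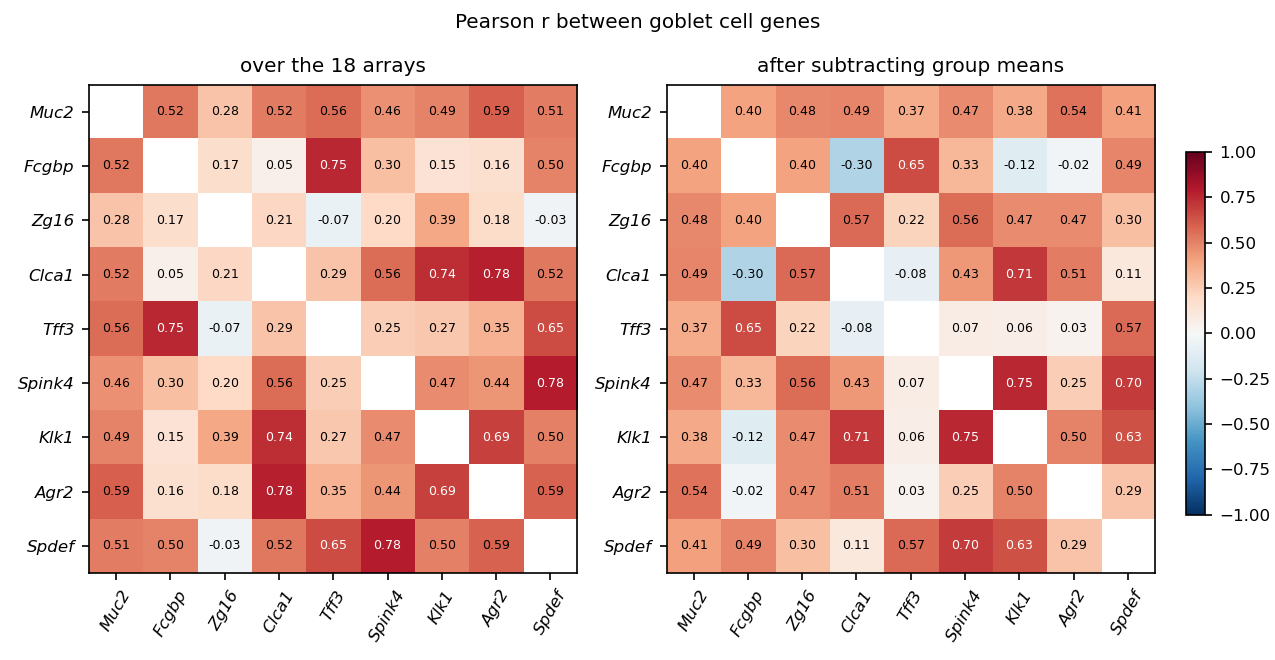
Pearson r between the 9 tested genes over the 18 arrays (left) and after each group's mean was subtracted (right); colour runs from -1 (blue) to 1 (red) and each cell gives r. Spink4 with Spdef and Clca1 with Agr2 are highest on the left at 0.78, and Fcgbp with Clca1 is lowest on the right at -0.30.

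Among named genes outside the 10, those whose pattern over the 18 arrays was most like the mean of the 9 were Mars1 (methionyl-tRNA synthetase) at r = 0.88, Mad1l1 (a spindle checkpoint protein) at 0.87, Fkbp11 (a prolyl isomerase of the endoplasmic reticulum) at 0.86, Mthfd2 (a mitochondrial folate enzyme) at 0.82 and Srm (spermidine synthase) at 0.80. Cdca8, Dlgap5 and Tmem266 followed, each at 0.80. In that mean the genes were centred but not scaled. Zg16, with an SD between mice of 1.13 against 0.18 to 0.41 for the others, therefore weighed most in it. For single genes the most alike were Thada for Muc2 (0.80), Irf3 for Fcgbp (0.92), Arfrp1 for Zg16 (0.79), Tmem30a for Clca1 (0.83), Taf12 for Tff3 (0.85), Elapor1 for Spink4 (0.84), Psmc2 for Agr2 (0.80) and Oit1 for Spdef (0.80). They are the highest of 12804 genes compared over only 18 arrays.

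Further goblet cell products and the machinery that serves them were read from lists. Of 32 other goblet secreted and granule genes, 23 could be tested. In each of the 4 comparisons of a strain with PBS 14 stood above PBS, not necessarily the same ones. Of all features, 51.3% with DSM 17938 and 50.2% with ATCC PTA 6475 did at 4 h, and 52.4% with ATCC PTA 6475 at 24 h. At 24 h, Ang4, a secreted antimicrobial ribonuclease that Paneth cells make too, was at 9.77 ± 0.18 with DSM 17938 and at 7.96 ± 0.90 with PBS, a difference of 1.81 (SE 0.66). Slc12a2, the basolateral chloride importer, differed by 0.45 (SE 0.18) in that comparison, while Vamp8, a granule fusion protein, differed by -0.53 (SE 0.17) with ATCC PTA 6475 at 24 h. At an unadjusted limma p under 0.05, 2 of the 23 were higher and 1 lower at 24 h with each strain, where 2.55% of all features were higher and 2.42% lower with DSM 17938, and 7.59% and 7.48% with ATCC PTA 6475. None passed after adjustment. With DSM 17938 at 24 h, 9 of these 23 stood lower than with PBS (median 0.060), as did 48.3% of all features. Of the 9 goblet cell genes described above, 7 did. The difference between the lists was not tested.

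Of 37 genes that build and sulphate mucin sugars, 31 could be tested. Their median difference from PBS lay between -0.077 and 0.025 in the 4 comparisons, with 1 higher and 1 lower at an unadjusted limma p under 0.05 with DSM 17938 at 24 h (2.55% and 2.42% of all features) and 2 and 2 with ATCC PTA 6475 (7.59% and 7.48%). These counts are near those shares. B3gnt3, an O-glycan extending enzyme, differed by 1.10 (SE 0.41) with DSM 17938 at 24 h, where its mice spread by an SD of 0.86 and PBS stood at 5.28. The sialyltransferases St6galnac2 and St6galnac6 differed by 0.66 (SE 0.24) and -0.43 (SE 0.17) with ATCC PTA 6475 at 24 h.

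Of 39 genes of endoplasmic reticulum folding and export, the compartment in which Agr2 works, 35 could be tested. At 24 h, 27 of the 35 stood below PBS with DSM 17938 (median -0.20) and 27 with ATCC PTA 6475 (median -0.21), in comparisons where 48.3% and 47.6% of all features did and which share the same PBS mice. In those PBS mice, 33 of the 35 were higher at 24 h than at 4 h, with a median of 0.12, beside 49.4% of all features. The genes of smallest unadjusted p by limma were all with ATCC PTA 6475 at 24 h. Sec61b, a subunit of the protein channel, was at -0.90 (SE 0.21) and Kdelr2, a retrieval receptor, at -0.93 (SE 0.25). Sdf2l1, a chaperone partner, was at -1.02 (SE 0.33). The limma adjusted p-values of these genes were 0.123, 0.130 and 0.180 in that order. With that strain, 5 of the 35 were lower and 1 higher at an unadjusted limma p under 0.05, where 7.48% and 7.59% of all features were. With DSM 17938 at 24 h, 3 of the 35 were lower and 0 higher by that rule, where 2.42% and 2.55% of all features were. The lowest difference there was -0.90.

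Of 27 regulators of the secretory lineage and of Notch signalling, 23 could be tested, and their median difference from PBS lay between 0.016 and 0.077. With ATCC PTA 6475 at 24 h, 3 were higher and 2 lower at an unadjusted limma p under 0.05, where 7.59% of all features were higher and 7.48% lower. The genes of smallest p were the Notch ligand Dll1 at 0.41 (SE 0.15), the receptor-cleaving protease Adam17 at 0.30 (SE 0.11) and the Notch target Hes5 at -0.41 (SE 0.14). Their adjusted p-values by limma were 0.211, 0.218 and 0.179. Hes5 was detected in at most 6 arrays, with means of 4.43 with ATCC PTA 6475 and 4.85 with PBS. The undetected Atoh1 probe averaged 4.33, so the Hes5 difference lies near background. With DSM 17938 at 24 h, 0 of the 23 reached an unadjusted p under 0.05.

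Markers of other cells were read beside these results. Of 21 enterocyte and epithelial markers 18 were detected in all arrays, among them Vil1, Epcam and Sis, but probes of the enterocyte markers Fabp1, Fabp2 and Slc10a2 were detected in none. All 14 muscle and stroma markers were tested, so the captured material was not epithelium alone. The enterocyte markers of smallest p were lactase (Lct), apolipoprotein Apoa1 and keratin Krt20, which differed by -1.31 (SE 0.41), -0.48 (SE 0.17) and 0.80 (SE 0.34) with DSM 17938 at 4 h. With ATCC PTA 6475 at 4 h, 12 of the 14 muscle and stroma markers stood above PBS (median 0.18), beside 50.2% of all features. The collagen gene Col1a2 differed by 0.48 (SE 0.24) there, and the filament gene Vim and the matrix gene Dcn by -0.59 (SE 0.29) and 0.38 (SE 0.20) with that strain at 24 h. The summed linear signals of that list were 51956 to 86866 with PBS at 4 h, 74063 to 92846 with ATCC PTA 6475 at 4 h and 65270.2 to 93200 with ATCC PTA 6475 at 24 h.

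Leukocyte markers were on average brightest in PBS pups at 24 h. All 12 tested were higher in these pups than in PBS pups at 4 h (median 0.37), beside 49.4% of all features. The same PBS pups of 24 h serve in the next comparison. With DSM 17938, 10 of the 12 stood lower than with PBS at 24 h (median -0.35), beside 48.3% of all features. The neutrophil genes S100a8 and S100a9 differed by -2.59 (SE 0.62) and -1.79 (SE 0.56) there, with SDs of 1.66 and 1.79 among the PBS mice. Their DSM 17938 means, 4.74 and 4.43, lay near background, as the undetected Atoh1 probe averaged 4.33. S100a9 was detected in at most 8 arrays. At 4 h, 8 of the 12 stood above PBS with ATCC PTA 6475 (median 0.71), beside 50.2% of all features. At an unadjusted limma p under 0.05, 4 of the 12 were higher, where 1.76% of all features were. The intraepithelial lymphocyte integrin Itgae differed by 0.74 (SE 0.25) there. Against DSM 17938 at 4 h, 5 of the 12 were higher with ATCC PTA 6475 and 1 lower by the same rule, where 1.94% and 1.44% of features were. The summed leukocyte signals were 971.0 to 1320 with PBS, 1068 to 1370 with DSM 17938 and 1070 to 2062 with ATCC PTA 6475 at 4 h. At 24 h they were 1221 to 2559 with PBS and 1140 to 1347 with DSM 17938, with Cd8a and Itgam in no array and Ptprc in 2 arrays above background.

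Of 12 crypt and proliferation markers tested, 11 were lower with DSM 17938 at 24 h (median -0.21), beside 48.3% of all features. With ATCC PTA 6475 at 24 h, 9 of 12 were lower (median -0.37), beside 47.6%. In PBS pups, 9 of 12 were higher at 24 h than at 4 h (median 0.30), beside 49.4%. All of these comparisons share the PBS mice of 24 h. The replication genes Mcm3, Mcm2 and Tyms differed by -0.80 (SE 0.27), -0.43 (SE 0.18) and -0.52 (SE 0.22) with ATCC PTA 6475 at 24 h. The summed signals of that list were 5238 to 6888 with PBS at 24 h and 4086 to 6813 with DSM 17938. Paneth cell markers, 13 tested, stood mostly above PBS at both times. At 4 h, 11 of 13 did with DSM 17938 (median 0.22), beside 51.3% of all features. The same count with ATCC PTA 6475 had a median of 0.32, beside 50.2%. At 24 h, 12 of 13 did with ATCC PTA 6475, beside 52.4% of all features. With DSM 17938, 10 of 13 did and 3 stood below, where 48.3% of all features did. Their summed signals at 24 h were 42066 to 67643 with PBS, 53642 to 87378 with DSM 17938 and 38764 to 100084 with ATCC PTA 6475. Beside Ang4, lysozyme (Lyz1) and the defensin Defa31 had the smallest p of that list, at 1.21 (SE 0.48) and 0.96 (SE 0.52) with ATCC PTA 6475 at 4 h. Enteroendocrine markers were lower in 12 of 14 with ATCC PTA 6475 at 24 h (median -0.14), beside 47.6% of all features. The hormone genes Cck and Nts differed there by -0.59 (SE 0.17) and -0.50 (SE 0.21). The granin Scg3 differed by -0.51 (SE 0.19) with DSM 17938 at 4 h. Of 12 tuft cell markers, 4 could be tested, of which Sh2d6 was detected in at most 6 arrays. Il17rb differed by 0.43 (SE 0.17) with ATCC PTA 6475 at 4 h, Sh2d6 by 0.40 (SE 0.21) with that strain at 24 h and Dclk1 by -0.34 (SE 0.22) with DSM 17938 at 4 h, while Trpm5, Il25, Pou2f3, Gfi1b, Siglecf and Gnat3 were detected in no array. The part of these cells in the values of the goblet cell genes was not tested.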

How the data were processed

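Each array gave a bead signal per probe, an intensity on a linear scale that the authors left unnormalised, per the file headers. A second column per array, called a detection p-value there, is a fraction between 0 and 1 in the deposited table and is highest for bright probes, so 1 minus it was taken as the detection p. The authors also deposited a log2 table, whose columns share a median of 5.92, used as an alternative. Its background handling is not stated in the sources read. Its values lay within 0.039 of the log2 of the bead signals after quantile normalisation alone, without background correction. Of programs, the submitters' processing notes name GenomeStudio.

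The neqc function of limma 3.58.1 (R 4.3.3) corrected background with an offset of 16, quantile-normalised the arrays and took log2. A probe was used if its detection p was under 0.05 on 3 or more arrays, as for 24506 of 45281. The platform annotation gave 1 symbol to 34885 probes, several to 18 and none to 10378, and gene IDs updated 34807 of them. A gene was read from its used probe of highest mean, which left 12804 genes and 4031 unnamed probes. One limma fit of all 18 arrays had 6 group means, with 12 residual and 4.25 prior degrees of freedom, and Benjamini-Hochberg adjustment ran over the 16835 features of a comparison. The fit was tested on simulated data.

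Groups, times and replicate numbers were taken from the labels. The 10 genes and the lists were chosen with earlier results of these data known. Named are all 10, the 3 genes of each list with the smallest unadjusted p against PBS, the 8 genes most correlated with the mean of the 9 and the 1 most correlated with each, predicted and clone-named genes apart. Markers cited as detected or undetected, such as Vil1 and Fabp1, were picked after their values were seen.

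Alternative settings comprised a larger offset (50), scaling to a common median, the authors' log2 table, dropping the detection filter or requiring p under 0.01 on 9 arrays, a block for replicate number, weights per array, fits of only the compared arrays, each gene's second probe, and the removal of every array in turn.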

Additional observations from a re-analysis of the deposited data

Results flagged for a closer look

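In 4 goblet cell genes, every mouse given DSM 17938 lay above the PBS mean at 4 h and below the PBS mean of that time at 24 h. The share of all features with that pattern was not counted, so the 4 are not read as unusual. The interaction given next rests on the same values and adds no separate evidence. The difference between the times was tested as an interaction with limma. The effect at 24 h minus that at 4 h was -1.07 for Agr2, -0.91 for Clca1, -0.91 for Klk1 and -0.50 for Spdef. None passed adjustment, with a limma adjusted p of 1.00 for each. Leaving out single mice gave -1.22 to -0.90 for Agr2, -1.07 to -0.75 for Clca1, -1.09 to -0.66 for Klk1 and -0.61 to -0.39 for Spdef. The same 3 PBS mice stand in each of these differences at a given time.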

How the results depend on the processing

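Under 27 other settings, 18 of which left out a single mouse, 0 of the 9 genes passed the adjusted threshold in any of the 14 comparisons, and the lowest adjusted p of a member was 0.203 as reported, 0.118 under other settings and 0.175 with a mouse left out, each by limma. Leaving out mice moved 0 of 2268 differences by more than 1 SD between mice and turned the sign of 79, and the other settings moved 21 of 1134 and turned 34. Scaling arrays to a common median moved the members' median difference to -0.29 (from 0.067) with ATCC PTA 6475 relative to PBS at 24 h, to -0.29 (from -0.064) for the mean of both strains at 24 h, to 0.084 (from 0.36) for ATCC PTA 6475 against DSM 17938 at 24 h and to 0.21 (from 0.42) for ATCC PTA 6475 between the times, while the median of all features moved to -0.156 and -0.083 and then to -0.166 and -0.124. The cause was not tested.

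Same-numbered arrays tended to deviate together from their group means. Their correlations had a median of 0.157 over 45 pairs, with 31 over 0.1, against -0.108 for other pairs. As deviations within a group sum to 0, the value for other pairs largely follows from the first and is no separate evidence. Of 18 arrays, 17 correlated best with their own number, a hint from the data and not the design. The same-number correlations ran from -0.048 to 0.507, so not every pair was over 0.1 and the numbers were not treated as pairs. With the number as a replicate block, 246 features passed with ATCC PTA 6475 relative to PBS at 24 h, 39 in the mean of both strains at 24 h and 1 for all pups between the times, against 0 without it, and 0 of the 9 genes did. With only the compared arrays, 6 features passed for DSM 17938 against PBS at 24 h, 1 for the strains at 24 h and 6 for PBS between the times. Leaving out single mice gave 0 to 10 features for DSM 17938 at 4 h and 0 to 8 for the strains at 4 h. Of the 9 genes, Fcgbp and Agr2 lay near background, which limits their differences.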
